A study of Mus musculus with 18 samples.

Results

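Of the 36528 genes in the files, 48 rose more with TWEAK at 6 h than at 24 h by the rule used here. The members were chosen by measured values, among the 15521 genes with more than 10 reads in at least 4 of the 18 samples. A member had a mean of at least 1 CPM, the count over the sample's total count times 1000000, with TWEAK at 6 h. Its rise at 6 h, the mean CPM plus 0.1 with TWEAK over the same sum with vehicle, was at least 1.5. That rise was also at least 1.3 times the rise at 24 h. Of the 391 genes that passed the read, level and rise criteria, 343 did not pass the last one. The cells were primary C57BL/6 mouse renal tubulointerstitial epithelial cells (mRPTEC) from a commercial source, labelled as kidney. Cells of 2 groups received vehicle (DMSO) alone, 2 groups received 100 ng/mL TWEAK, and 2 groups received 100 ng/mL TWEAK with 3 µM NIK SMI1. Each treatment lasted 6 h or 24 h, with 3 samples in each of the 6 groups, and no group analysed here received NIK SMI1 alone. The sources do not say whether the 3 samples of a group came from separate cell preparations, so p-values measure only the spread between these cultures.

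TWEAK, a ligand of the TNF superfamily, binds the receptor Fn14 (Tnfrsf12a) and drives both branches of NF-κB signaling. In the non-canonical branch, released NIK (Map3k14) phosphorylates IKKα, p100 (Nfkb2) is processed to p52, and p52 enters the nucleus with RelB. In the canonical branch, the inhibitor IκB is degraded, free NF-κB dimers act within minutes, and induced inhibitors such as IκBα (Nfkbia) and A20 (Tnfaip3) then limit them. In kidney epithelium TWEAK is known for inducing chemokines and other pro-inflammatory genes. NIK SMI1 is a small molecule inhibitor of NIK.

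Between 18040966 and 51956444 reads were counted per sample (median 35374254), so that 3 reads corresponded to 0.0577 to 0.166 CPM. All 10 epithelial markers examined were detected, at a summed 10401 to 13963 CPM. The 5 podocyte markers, of which Podxl and Synpo reached 1 CPM, summed to 279 to 446 CPM. Fibroblast markers summed to 17.5 to 25.0, leukocyte markers to 18.5 to 26.0 and proximal tubule markers to 11.8 to 16.4 CPM. Endothelial, loop of Henle and collecting duct markers each summed to at most 6.70 CPM. Of the 17 proximal tubule markers, 4 (Cubn, Slc5a2, Ggt1 and Gatm) reached 1 CPM in any sample, 9 lay below it, and 4 (Slc22a8, Slc22a12, Miox and Kap) had no read in any sample, so the cells are called mRPTEC here by their label. Reads of islet genes summed to between 15.5 and 32.7 CPM in every 6 h and vehicle 24 h sample, to 14.8, 0.24 and 4.59 CPM in TWEAK 24 h samples 1, 2 and 3, and to at most 0.087 CPM in all samples with NIK SMI1 at 24 h. The nuclear RNA Neat1 was at 148 CPM in vehicle 6 h sample 1, against 337 and 423 CPM in the other vehicle 6 h samples, and at 215 CPM in TWEAK 6 h sample 3, against 369 and 380 CPM. Without both libraries low in Neat1 the rule chose 56 genes, of which 40 were among the 48. Leaving out TWEAK 24 h samples 2 and 3 gave 60 genes, of which 43 were among the 48. The source of the islet reads was not tested. In bulk samples, fewer cells of a type and less RNA per cell cannot be told apart.

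Of the 48 members, 41 were protein-coding genes, 5 were long non-coding RNAs and 2 were identifiers (102642566 and 102634019) with no entry in the RefSeq table. No member was among the tested genes of the lists of TWEAK receptor and non-canonical NF-κB genes (12), NF-κB subunits, inhibitors and IKK (23), TNF receptor adaptors (32), cytokines and chemokines (30), TNF superfamily (24), AP-1 and immediate early genes (37), signaling feedback (37), adhesion molecules (18) or apoptosis (27). With 48 members among 15521 tested genes, a count of 0 in lists of this size says little about the members. In all, 10 members (20.8%) were in any of the 15 lists, against 3.2% of the tested genes. The lists were chosen with earlier results of these data known, which can raise the share of the members. The share of the 343 other risen genes was not counted, so the excess is not read as particular to the members. These were the cytokine receptors Il1r1, Il13ra1 and Osmr, the matrix genes Mmp7, Mmp10 and Thbs1, the innate receptor Cd14, the interferon-inducible GTPase Gbp7, the growth factor Fgf1 and the transcription factor Batf3. The other members included a drug efflux pump (Abcb1b), a chloride channel (Cftr), a cAMP phosphodiesterase (Pde4b), a vesicle fusion protein (Stx11), a peptidoglycan recognition protein (Pglyrp3), and a pair of Neuralized family ubiquitin ligases (Neurl3 and Neurl1b).

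Promoter windows were in the RefSeq table for 35 of the 48 members (GRCm38.p6, 250 bases before to 50 after the start). The letters GGGNNTTTC, the greater part of a classical κB site, were searched on both strands and stood in the windows of 2 members, 5.71% of the 35, against 4.99% of the 11228 tested genes with a window and 10.3% of the genes that rose without being members. The general κB consensus, which overlaps these letters, was found in 8 members (22.9%), against 16.1% and 22.6%. Both members with GGGNNTTTC are shown 5′ to 3′ along their own strand, with the match in capitals, because they carry the same 9 letters, the reverse complement of the letters searched.
4833438C02Rik, chr19:46305580-46305879, minus strand: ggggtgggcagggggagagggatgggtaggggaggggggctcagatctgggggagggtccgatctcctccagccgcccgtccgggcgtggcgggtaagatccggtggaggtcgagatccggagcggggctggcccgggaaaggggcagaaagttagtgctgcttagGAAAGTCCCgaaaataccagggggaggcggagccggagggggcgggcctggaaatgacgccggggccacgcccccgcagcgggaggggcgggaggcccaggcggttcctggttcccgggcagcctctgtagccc
Neurl3, chr1:36273376-36273675, minus strand: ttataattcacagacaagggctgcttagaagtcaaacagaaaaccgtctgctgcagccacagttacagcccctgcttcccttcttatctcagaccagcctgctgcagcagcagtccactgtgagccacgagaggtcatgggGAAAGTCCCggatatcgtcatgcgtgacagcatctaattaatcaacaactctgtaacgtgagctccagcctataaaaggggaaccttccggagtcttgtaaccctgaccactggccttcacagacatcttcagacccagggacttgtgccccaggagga
In 4833438C02Rik the match lay at bases -84 to -76 from the start, and in Neurl3 at -109 to -101. The long non-coding RNA 4833438C02Rik overlaps the RefSeq span of Nfkb2, on the opposite strand. Its window shared 165 and 200 bases with separate Nfkb2 windows, and the match lies in windows of both genes. The letters TGANTCA, the core of an AP-1 site, were present in 6 members, Adra1b, Mmp10, Mmp7, Osmr, Rfx5 and Slco1a5. This was 17.1% of the members with a window, against 6.71% of the tested genes and 11.1% of the other risen genes. Mmp10 and Mmp7, which lie on chromosome 9 with 6 genes between them, are shown because each held the same 7 letters at the same distance from the start, bases -63 to -57.
Mmp10, chr9:7502092-7502391, plus strand: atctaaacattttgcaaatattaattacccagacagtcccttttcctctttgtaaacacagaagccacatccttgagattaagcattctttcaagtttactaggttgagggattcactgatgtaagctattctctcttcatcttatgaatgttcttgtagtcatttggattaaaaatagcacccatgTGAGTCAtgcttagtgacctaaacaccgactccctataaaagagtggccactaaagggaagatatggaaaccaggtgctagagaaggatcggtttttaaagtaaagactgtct
Mmp7, chr9:7691840-7692139, plus strand: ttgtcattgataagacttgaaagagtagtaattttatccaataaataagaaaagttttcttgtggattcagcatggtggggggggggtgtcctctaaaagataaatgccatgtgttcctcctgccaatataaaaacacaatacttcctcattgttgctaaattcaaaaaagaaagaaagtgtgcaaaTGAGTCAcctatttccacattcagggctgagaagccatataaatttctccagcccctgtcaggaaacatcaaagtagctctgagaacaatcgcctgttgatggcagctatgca
TATAAA was found in 5 members (14.3%), against 8.91% of the tested genes and 15.1% of the other risen genes. The interferon response core GAAANNGAA was found in 3 (8.57%), against 8.27% and 11.5%, and TTCNNNGAA in 5 (14.3%), against 8.23% and 10.3%. No window held the cAMP response element TGACGTCA or a CArG box, which stood in 3.48% and 1.59% of the tested genes and in 2.78% and 2.38% of the other risen genes. These matches are descriptions of letters and say nothing about binding.

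The values that chose the members are given as a description, with no test. The rise at 6 h had a median of 1.85 (range 1.51 to 5.89), the rise at 24 h a median of 1.33 (0.54 to 3.72), and the ratio of the rises a median of 1.46 (1.302 to 3.17). The largest ratios were those of Cytip (3.17), a cytohesin-binding protein, the matrix protease Mmp7 (2.74), Tcaf2 (2.46), which associates with a TRP channel, the interferon-inducible GTPase Tgtp1 (2.34), the tetraspanin Tspan2 (2.14) and Gbp7 (1.89). Then came Fgf1 (1.86), Papss2 (1.79), Psors1c2 (1.78), Gm5106 (1.76), Gpr85 (1.73) and Il1r1 (1.70). At the limit of 1.3 the members just inside were Slco1a5, Mcc and Thbs1 (1.302, 1.302 and 1.307) and the genes just outside were Zfp429, TrnI and Irak3 (1.289, 1.285 and 1.276). At the limit of 1.5 for the rise, A730035I17Rik, 102642566 and Pfkfb3 lay inside (1.51, 1.53 and 1.54), and Fsd1l, Flt1 and Zfa-ps outside (1.48, 1.47 and 1.47). Many members were expressed at a low level. With TWEAK at 6 h, 15 had a mean between 1 and 2 CPM, 16 between 2 and 10 CPM, 16 between 10 and 100 CPM, and Thbs1 alone more. Leaving out 1 of the 12 vehicle and TWEAK samples at a time, 24 of the 48 were chosen in all 12 sets.

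**Figure D1:**
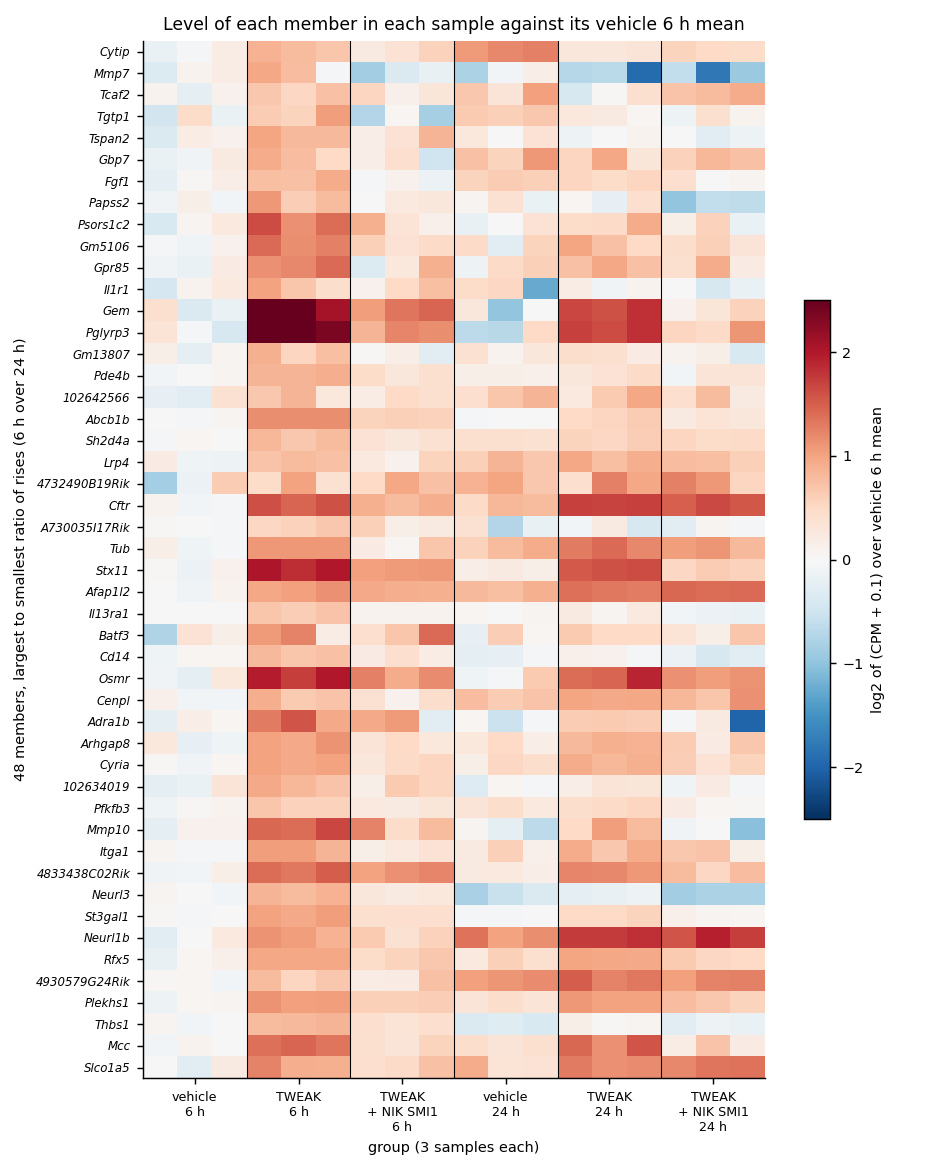
Level of each of the 48 members (rows, from the largest to the smallest ratio of rises) in each of the 18 samples (columns, 3 per group), as the log2 of CPM plus 0.1 over the vehicle 6 h mean. Red is above and blue below that mean; Gem and Pglyrp3 had the largest rises at 6 h (5.88 and 5.89), and the columns of NIK SMI1 at 6 h are paler than those of TWEAK alone for most members.

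A larger rise at 6 h can come from a fall of the TWEAK level by 24 h or from a higher vehicle level at 24 h, and both were seen. In 31 members all TWEAK samples were lower at 24 h than at 6 h. In another 15 the TWEAK samples did not fall in this way, but all vehicle samples were higher at 24 h than at 6 h. The remaining 2, Batf3 and Osmr, did neither. These counts describe values that the rule used, and the shares of all tested genes with such separation were not counted. Over the 48, the TWEAK level at 24 h was a median 0.77 times that at 6 h (1.06 over all tested genes), and the vehicle level 1.24 times (1.05 over all tested genes).

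The drug efflux pump Abcb1b belonged to the first kind. Its level was 42.2, 41.3 and 44.6 CPM in the vehicle samples at 6 h and 96.1, 95.05 and 96.2 CPM with TWEAK. At 24 h it was 41.5, 42.8 and 43.1 CPM with vehicle and 60.6, 62.3 and 65.9 CPM with TWEAK. Vehicle values were alike at both times, and the TWEAK values of the 2 times did not overlap. Abcb1b is next to Gm5106 on the opposite strand with overlapping exons, the counts did not use strand, and reads of the pair cannot be told apart. Of the 41 members whose exons could be compared, 14 had exons overlapping another gene, among them Cftr, Mmp7, Thbs1, Tspan2, Rfx5 and Tub. The part of such reads in their levels was not tested. Gm5106 was itself a member, at 5.57, 4.69 and 4.99 CPM with TWEAK at 6 h and 4.14, 3.47 and 2.94 CPM at 24 h. The sialyltransferase St3gal1, named after its values were seen, had the same course. It went from 47.5, 45.1 and 47.1 CPM to 93.4, 89.8 and 96.3 CPM at 6 h, and stood at 44.8, 45.0 and 46.3 CPM with vehicle and 65.6, 65.8 and 68.8 CPM with TWEAK at 24 h. No TWEAK sample overlapped a vehicle sample at either time.

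The chloride channel Cftr belonged to the second kind. With TWEAK it was at 10.3, 9.18 and 10.2 CPM at 6 h and at 10.97, 10.96 and 10.97 CPM at 24 h. With vehicle it was at 3.53, 3.15 and 3.23 CPM at 6 h and at 4.63, 5.99 and 5.76 CPM at 24 h. All TWEAK samples were thus slightly higher at 24 h than at 6 h, and so were all vehicle samples, with no overlap. The adaptor Afap1l2 went from 15.6, 14.7 and 16.7 CPM with vehicle to 30.9, 31.97 and 34.9 CPM with TWEAK at 6 h, and from 27.6, 26.4 and 29.1 to 40.9, 39.2 and 38.1 CPM at 24 h. Both its vehicle and its TWEAK levels were higher at 24 h, with no overlap. The others of this kind were 102642566, 4732490B19Rik, 4930579G24Rik, Cenpl, Gbp7, Itga1, Lrp4, Mcc, Neurl1b, Plekhs1, Rfx5, Slco1a5 and Tub. Some members met both conditions. The SH2 domain adaptor Sh2d4a went with TWEAK from 87.95, 78.2 and 85.6 CPM to 72.4, 70.5 and 75.8 CPM while its vehicle level went from 47.4, 50.6 and 49.6 CPM to 64.6, 64.9 and 63.99 CPM. In all, 10 members had both the lower TWEAK and the higher vehicle samples at 24 h, and the share of all tested genes with both was not counted.

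**Figure D2:**
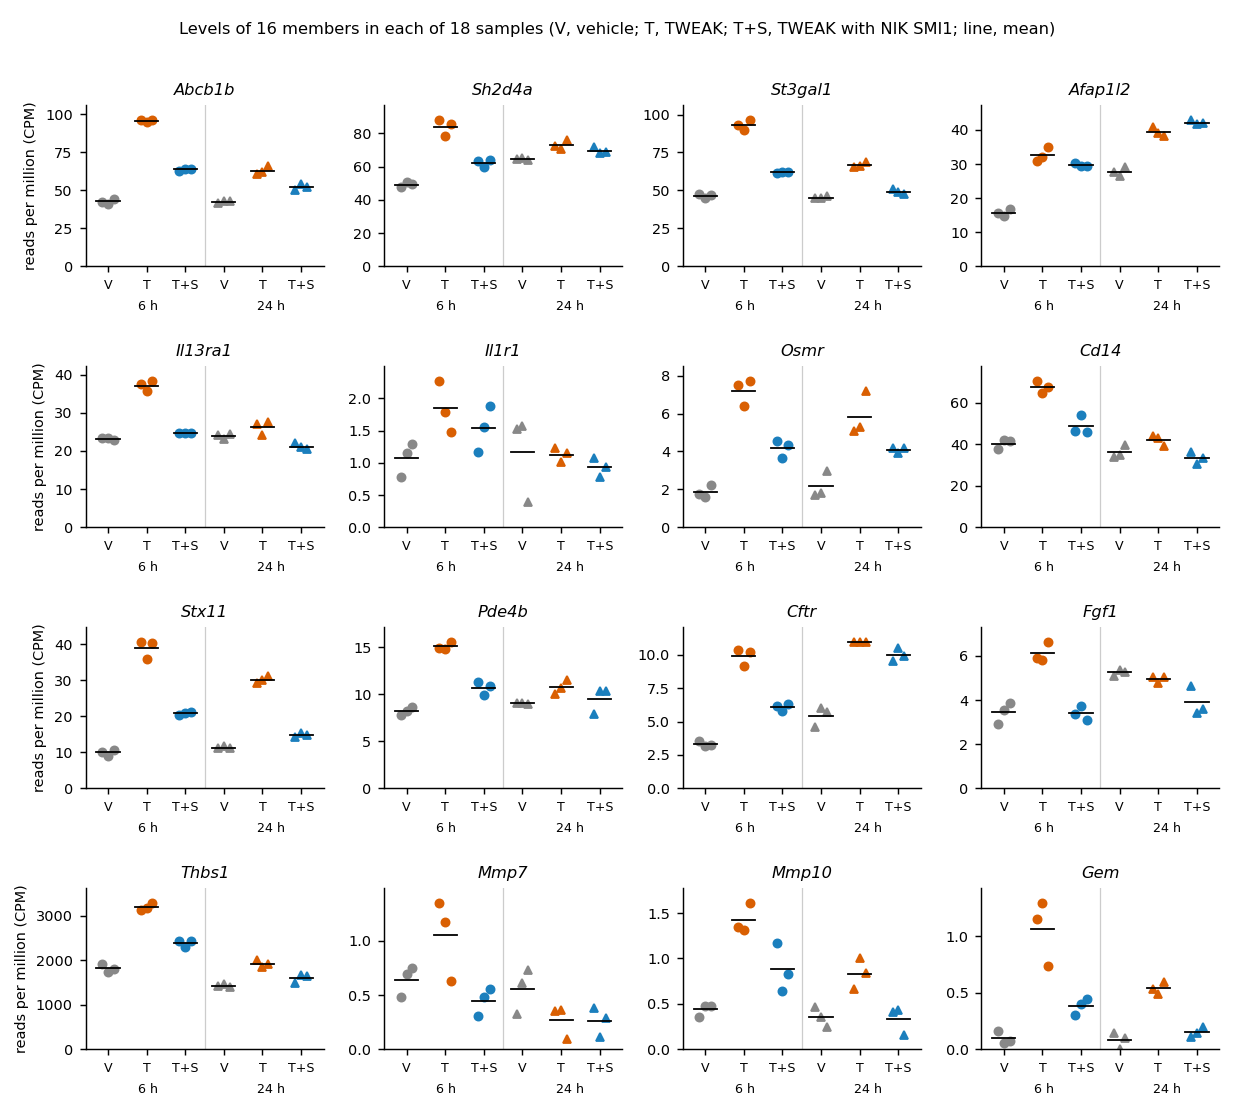
CPM (linear axis from 0) of 16 members in every sample, with circles for 6 h, triangles for 24 h and a line for the mean of 3 samples; V is vehicle, T is TWEAK and T+S is TWEAK with NIK SMI1. With TWEAK, Abcb1b, St3gal1 and Il13ra1 are lower at 24 h than at 6 h, whereas Cftr and Afap1l2 are not, and their vehicle samples are higher at 24 h; the 16 were chosen for display after their values were seen.

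The larger rise at 6 h was next measured in samples that had not chosen the genes. The rule was applied 3 times, each time without 1 sample of each vehicle and TWEAK group, and the rises were then taken from those left-out samples. The sample numbers are only names and pair nothing, and the lone samples were assumed to vary like the NIK SMI1 groups. Without the samples numbered 1, the rule chose 45 genes (33 of them among the 48). In the left-out samples the rise at 6 h was the larger for 36 of the 45, by a median of 1.32-fold, and the difference passed the edgeR quasi-likelihood test for 3, against 1.36% of all tested genes. Without the samples numbered 2, the difference had the same direction for 45 of 63 genes (median 1.38-fold), and passed for 8, against 1.46%. Without those numbered 3, the rule chose 125 genes, the direction held for 54 of them, the median was 0.83-fold, and 6 passed, against 0.934%. Of these 63 and 125 genes, 36 and 42 were among the 48. The direction of the median thus differed between the 3 sets, in which the samples that chose the genes and those that measured them both changed. Membership of the 48 itself used all vehicle and TWEAK samples, the left-out ones included. Among the members, Abcb1b and Sh2d4a passed in all 3 left-out sets. Il13ra1, St3gal1 and Afap1l2 passed in 2 of them, and Cd14 and Tspan2 in 1.

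NIK SMI1 lowered most members at 6 h. Against TWEAK alone, 33 of the 48 (68.8%) were lower and none was higher (edgeR quasi-likelihood test, adjusted p under 0.05), where 5.7% of all tested genes were lower and 5.34% higher. The count of members higher was also 0 at an unadjusted p under 0.05 and 0 with DESeq2. A decrease of more than 1.5-fold was called for 20 members, against 1.1% of all genes. The median log2 fold change was -0.58 over the members and 0.003 over all genes. Lower members were 30 of the 41 protein-coding genes, 3 of the 5 long non-coding RNAs and 0 of the 2 identifiers without a RefSeq entry (1 at an unadjusted p under 0.05, 0 with DESeq2). The TWEAK 6 h samples entered both the rule and this comparison, which favors a decrease. The 343 other genes that had risen at 6 h share this property, and 255 of them (74.3%) were lower, with a median of -0.46. The difference between these shares was not tested. Without the libraries low in Neat1, an alternative chosen after the data were seen, 32 of the 48 were lower. The calls of 9 members (Mmp7, Papss2, Neurl1b, Psors1c2, 4833438C02Rik, Tgtp1, Gpr85, Lrp4 and Cenpl) were lost when some single sample was left out, and those of the other 24 were kept under each alternative that gave an adjusted p. Without NIK SMI1 sample 2 at 6 h, the log2 fold change was -0.42 in Neurl1b, -0.39 in Lrp4 and -0.36 in Cenpl. Neurl1b was also lost without TWEAK sample 1 (-0.44).

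Against a TWEAK 6 h sample that had no part in choosing the genes, the decrease was seen again in part. The newly chosen genes were only partly members, since 33 of 45, 36 of 63 and 42 of 125 were among the 48. For the samples numbered 1, 21 of the 45 newly chosen genes were lower with NIK SMI1, against 2.76% of all genes, with a median log2 fold change of -0.55. For those numbered 2 it was 15 of 63, against 1.98% (median -0.41). For those numbered 3 it was 19 of 125, against 2.74%, with a median of -0.01 and 2 genes higher.

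**Figure D3:**
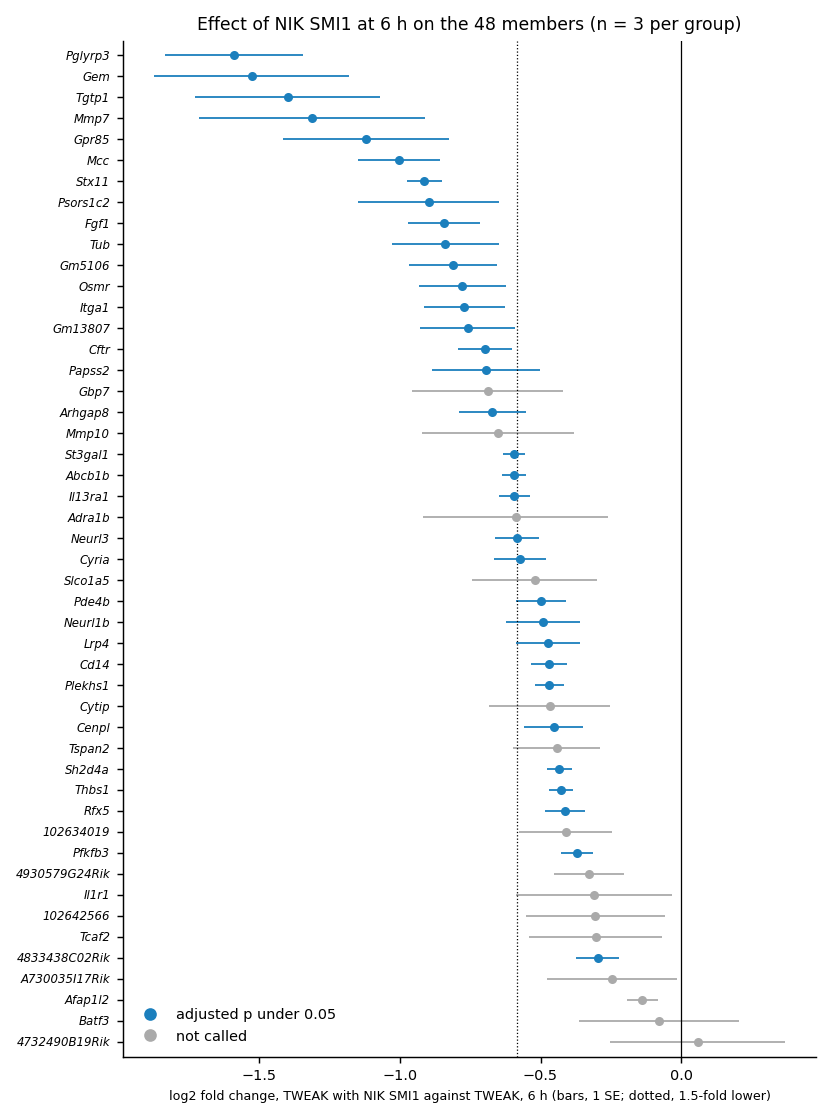
Log2 fold change of TWEAK with NIK SMI1 against TWEAK alone at 6 h for the 48 members (3 samples per group, bars 1 SE, edgeR), with blue points for an adjusted p under 0.05. The points run from -1.59 (Pglyrp3) to 0.06 (4732490B19Rik), and 33 of them are called lower.

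Among the receptors, Il13ra1, a chain of the IL-13 receptor and of the type II IL-4 receptor, returned close to its vehicle level. It was at 23.3, 23.3 and 22.9 CPM with vehicle, 37.4, 35.6 and 38.3 CPM with TWEAK and 24.6, 24.7 and 24.6 CPM with the inhibitor at 6 h. The samples with NIK SMI1 lay above every vehicle sample by a small margin and far below every TWEAK sample. The log2 fold change was -0.59 ± 0.05 (SE, adjusted p = 9.5e-09) against TWEAK and 0.10 ± 0.06 (SE, adjusted p = 0.29) against vehicle. Osmr, the signaling chain of the oncostatin M receptor, was lowered but stayed above vehicle. It was at 1.75, 1.58 and 2.23 CPM with vehicle, 7.497, 6.38 and 7.71 CPM with TWEAK and 4.56, 3.63 and 4.32 CPM with the inhibitor. The groups did not overlap, and the log2 fold change was -0.78 ± 0.16 (SE, adjusted p = 8.9e-04) against TWEAK and 1.16 ± 0.18 (SE, adjusted p = 4.8e-05) against vehicle. Il1r1, the signaling receptor of interleukin 1, had overlapping groups, at 2.27, 1.79 and 1.48 CPM with TWEAK and 1.17, 1.56 and 1.88 CPM with the inhibitor (log2 fold change -0.31 ± 0.28 SE, adjusted p = 0.56). For Cd14, a co-receptor for bacterial lipopolysaccharide, the values were 37.7, 41.9 and 41.6 CPM with vehicle, 70.6, 65.01 and 67.5 CPM with TWEAK and 46.7, 54.2 and 46.01 CPM with the inhibitor. These groups did not overlap either, and Cd14 passed against TWEAK (log2 fold change -0.47 ± 0.06 SE, adjusted p = 7.3e-06) and against vehicle (log2 fold change 0.28 ± 0.07 SE, adjusted p = 0.0043). Without NIK SMI1 sample 2 the rise of Cd14 over vehicle was 0.20 and did not pass. Gpr85, an orphan G protein-coupled receptor, was lower (log2 fold change -1.12 ± 0.30 SE, adjusted p = 0.012), but not without NIK SMI1 sample 1 (-0.76), and the adrenergic receptor Adra1b did not pass (log2 fold change -0.59 ± 0.33 SE, adjusted p = 0.30).

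Of the secreted and matrix genes, Thbs1 was by far the most abundant. Thrombospondin 1, its product, is a matrix protein that can activate latent TGF-β. Its mean RPKM with TWEAK at 6 h, the authors' measure per gene length, was 527, ahead of Cd14 (43.4), Sh2d4a (28.5), Abcb1b (21.1) and Plekhs1 (17.5). Thbs1 stood at 1922, 1743 and 1811 CPM with vehicle, 3144, 3181 and 3291 CPM with TWEAK and 2445, 2299.7 and 2443 CPM with the inhibitor at 6 h. Every sample with NIK SMI1 lay between the vehicle and the TWEAK samples, with a log2 fold change of -0.43 ± 0.04 (SE, adjusted p = 4.6e-08) against TWEAK. For Fgf1, a fibroblast growth factor, the levels were 2.92, 3.53 and 3.89 CPM with vehicle, 5.89, 5.82 and 6.63 CPM with TWEAK and 3.37, 3.71 and 3.104 CPM with the inhibitor. Fgf1 thus overlapped vehicle with the inhibitor, with a log2 fold change of -0.84 ± 0.13 (SE, adjusted p = 2.7e-05) against TWEAK and -0.02 ± 0.14 (SE, adjusted p = 0.94) against vehicle. Mmp7, or matrilysin, was at 1.35, 1.17 and 0.63 CPM with TWEAK and 0.31, 0.48 and 0.55 CPM with the inhibitor (log2 fold change -1.31 ± 0.40 SE, adjusted p = 0.033). The call for Mmp7 was lost without TWEAK sample 1 (-1.13) or 2 (-1.21), or NIK SMI1 sample 1 (-1.04) or 2 (-1.41). Its neighbor Mmp10, or stromelysin 2, was at 1.35, 1.31 and 1.61 CPM and 1.17, 0.64 and 0.83 CPM (log2 fold change -0.65 ± 0.27 SE, adjusted p = 0.13) and did not pass. Both proteases were near 1 CPM, with standard errors of 0.40 and 0.27 on the log2 scale. Papss2, which makes the sulfate donor of glycosaminoglycans, was lower with the inhibitor (log2 fold change -0.69 ± 0.19 SE, adjusted p = 0.016), but not without TWEAK sample 1 (-0.57) or NIK SMI1 sample 1 (-0.59).

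The 5 largest decreases were in genes with a mean of at most 3 CPM with TWEAK. Pglyrp3, an antibacterial peptidoglycan recognition protein, was at 0.52, 0.37 and 0.27 CPM with vehicle, 3.16, 2.74 and 2.403 CPM with TWEAK and 0.78, 1.04 and 0.998 CPM with the inhibitor. Its log2 fold change was -1.59 ± 0.24 (SE, adjusted p = 3.6e-05) against TWEAK, and it still exceeded vehicle (log2 fold change 1.31 ± 0.33 SE, adjusted p = 0.0064), which was lost without vehicle sample 3 (1.06, adjusted p = 0.0501). Gem, a small GTPase that restrains calcium channels, went from 1.15, 1.29 and 0.74 CPM to 0.31, 0.40 and 0.44 CPM (log2 fold change -1.53 ± 0.34 SE, adjusted p = 0.0032), with vehicle at 0.16, 0.053 and 0.077 CPM. Stx11, a syntaxin of vesicle fusion, had a more precise estimate. It was at 10.2, 9.06 and 10.7 CPM with vehicle, 40.6, 36.0 and 40.4 CPM with TWEAK and 20.4, 20.9 and 21.2 CPM with the inhibitor. The groups stood apart, with a log2 fold change of -0.91 ± 0.06 (SE, adjusted p = 3.5e-11) against TWEAK and 1.06 ± 0.07 (SE, adjusted p = 1.0e-11) against vehicle. The others of the 10 largest decreases on the log2 scale were those of Tgtp1 (-1.40 ± 0.33), Mcc (-1.001 ± 0.15), Psors1c2 (-0.90 ± 0.25) and Tub (-0.84 ± 0.19), besides Mmp7, Gpr85 and Fgf1. Psors1c2 was not called without TWEAK sample 1 (-0.78), NIK SMI1 sample 2 (-0.80) or NIK SMI1 sample 3 (-0.76), nor Tgtp1 without NIK SMI1 sample 1 (-1.18). Tgtp1 has a near-identical copy, and only uniquely aligned reads were counted, so reads that fit both copies would be missing and its value is uncertain.

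In 15 members no difference from TWEAK alone passed the test at 6 h. Afap1l2 was at 30.9, 31.97 and 34.9 CPM with TWEAK and 30.2, 29.5 and 29.3 CPM with the inhibitor at 6 h. Its log2 fold change was -0.14 ± 0.06 (SE, adjusted p = 0.12) against TWEAK, and 0.92 ± 0.06 (SE, adjusted p = 6.8e-12) against vehicle. The samples with the inhibitor lay just below those of TWEAK alone and well above vehicle. Batf3, a transcription factor of the AP-1 superfamily, spread from 1.14 to 2.49 CPM with TWEAK and from 1.36 to 2.83 CPM with the inhibitor (log2 fold change -0.08 ± 0.28 SE, adjusted p = 0.91). The long non-coding RNAs 4732490B19Rik (0.06 ± 0.31) and A730035I17Rik (-0.25 ± 0.23) were also near 1 CPM. Gbp7 was lower in every sample with NIK SMI1 than with TWEAK, at 0.75, 0.92 and 0.44 CPM against 1.35, 1.19 and 0.98 CPM, but did not pass (log2 fold change -0.69 ± 0.27 SE, adjusted p = 0.11). The long non-coding RNA 4833438C02Rik, with the κB letters printed above, was at 22.8, 21.5 and 24.6 CPM with TWEAK and 17.3, 19.04 and 20.2 CPM with the inhibitor (log2 fold change -0.30 ± 0.08 SE, adjusted p = 0.0096), and stayed above vehicle (log2 fold change 1.12 ± 0.08). Its decrease was not called without TWEAK sample 3 (-0.24) or NIK SMI1 sample 1 (-0.23). Neurl3, the other gene with those letters, was at 19.2, 18.4 and 19.5 CPM and 12.97, 12.3 and 12.8 CPM (log2 fold change -0.58 ± 0.08 SE, adjusted p = 5.1e-06).

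Compared with vehicle at 6 h, cells given TWEAK with NIK SMI1 still had 22 members higher, against 7.24% of all tested genes, and none lower, against 6.7%. At an unadjusted p under 0.05 none was lower, and the same held with DESeq2. Of the 343 other risen genes 259 (75.5%) were higher, and this difference was not tested. The vehicle 6 h samples also entered the rule. The lowest adjusted p were those of Afap1l2, Stx11, Abcb1b and 4833438C02Rik. The calls of 8 members (Cenpl, Mmp10, Neurl3, Arhgap8, Neurl1b, Pglyrp3, Pde4b and Cd14) were lost under some alternative. The chloride channel Cftr was at 6.21, 5.83 and 6.32 CPM with the inhibitor and 3.53, 3.15 and 3.23 CPM with vehicle, without overlap (log2 fold change 0.90 ± 0.11 SE, adjusted p = 8.2e-07). Abcb1b was between its other groups, at 63.01, 64.2 and 64.02 CPM, and passed against both TWEAK (log2 fold change -0.59 ± 0.04 SE, adjusted p = 6.3e-11) and vehicle (log2 fold change 0.58 ± 0.04 SE, adjusted p = 1.2e-10).

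At 24 h, 19 of the 48 members (39.6%) were lower with the inhibitor than with TWEAK alone, where 8.29% of all genes were, and 1 (Tcaf2, log2 fold change 0.77 ± 0.23 SE, adjusted p = 0.018) was higher, where 10.2% of all genes were. The call for Tcaf2 was lost without TWEAK sample 1 (0.63), TWEAK sample 2 (0.72) or NIK SMI1 sample 3 (0.71). In all, 8 of the 20 calls were lost under some alternative. The median log2 fold change was -0.29. Of the 343 other risen genes, 290 (84.55%) were lower at 24 h, with a median of -0.54. The rule used the TWEAK 24 h samples and took genes with a smaller rise at that time, and the difference between these shares was not tested. Without TWEAK 24 h samples 2 and 3, which were poor in islet reads, 12 of the 48 were lower, a count that rests on 1 TWEAK sample assumed to vary like the other groups. The part of the islet reads in the result was not tested. The decreases with the lowest adjusted p were those of Stx11 (log2 fold change -1.03 ± 0.06 SE, adjusted p = 1.5e-12), St3gal1 (log2 fold change -0.44 ± 0.04 SE, adjusted p = 3.5e-09) and Mcc (log2 fold change -1.04 ± 0.14 SE, adjusted p = 2.6e-06). Stx11 was at 29.2, 30.2 and 31.3 CPM with TWEAK, 14.4, 15.5 and 14.9 CPM with the inhibitor and 11.2, 11.6 and 11.1 CPM with vehicle. The samples with the inhibitor were thus far below TWEAK and still above vehicle. Sh2d4a, which was lower at 6 h (log2 fold change -0.43 ± 0.04 SE, adjusted p = 5.2e-08), did not pass at 24 h (log2 fold change -0.07 ± 0.04 SE, adjusted p = 0.29). The difference between the times was not tested.

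Against vehicle at 24 h, 11 members (22.9%) were higher with TWEAK and NIK SMI1, against 8.07% of all genes. Of the 343 other risen genes, which were not chosen for a smaller rise at 24 h, 267 (77.8%) were higher. Another 5 members (10.4%) were lower, a share near the 9.83% of all genes. The vehicle 24 h samples entered the rule, which took genes with high values in them. The 5 log2 fold changes were those of Papss2 (-0.92 ± 0.23), Cytip (-0.71 ± 0.20), Fgf1 (-0.42 ± 0.13), Il13ra1 (-0.18 ± 0.06) and Pfkfb3 (-0.24 ± 0.06), an activator of glycolysis. The call for Fgf1 was lost without any single vehicle sample or without NIK SMI1 sample 2 or 3 (-0.33 to -0.44), and that for Il13ra1 without vehicle sample 1 or 3 or NIK SMI1 sample 2 or 3 (-0.16 to -0.17). Cytip was not called when genes with few reads were kept in the fit (-0.71, adjusted p = 0.057). Of the 11 higher calls, 3 were lost when some single sample was left out. These were Pglyrp3 (0.80 to 1.02, without vehicle sample 1 or 2 or NIK SMI1 sample 3), Slco1a5 (0.60 to 0.68, without vehicle sample 2 or 3 or NIK SMI1 sample 2 or 3) and Thbs1 (0.12 and 0.14, without NIK SMI1 sample 2 and vehicle sample 3). In all, 6 of the 16 calls were lost under some alternative. Cytip lay on opposite sides of vehicle at the 2 times. It was at 0.55, 0.61 and 0.73 CPM with vehicle and 1.24, 1.17 and 1.08 CPM with TWEAK at 6 h, but at 1.43, 1.57 and 1.66 CPM with vehicle and 0.79, 0.79 and 0.81 CPM with TWEAK at 24 h. TWEAK samples were thus above vehicle at 6 h and below it at 24 h, without overlap at either time, and the samples with NIK SMI1 at 24 h (0.97, 0.93 and 0.91 CPM) were also below vehicle. In all, 10 members had a lower mean with TWEAK than with vehicle at 24 h. The share of all tested genes was not counted, and their median rise at 24 h was 0.996. The rule favors a smaller rise at 24 h, so the count is not read as a result about the members.

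The samples with NIK SMI1 did not enter the rule except through the read filter, so their change from 6 h to 24 h used no value that chose the members. In these samples 16 members (33.3%) were lower at 24 h, against 17.1% of all tested genes and 28.3% of the 343 other risen genes. Another 8 (16.7%) were higher, against 16.9% of all genes and 26.8% of the other risen genes. The differences between members and other risen genes were not tested. The median log2 fold change was -0.11 over the members and 0.006 over all genes. All 16 that were lower came from the 31 members whose TWEAK samples were lower at 24 h, and none of those 31 was higher. All 8 that were higher came from the 15 members with higher vehicle samples at 24 h, and none of those 15 was lower. The counts of 0 were also 0 at an unadjusted p under 0.05 and with DESeq2. The median was -0.44 in the first kind and 0.43 in the second. The split into these kinds was made after the data were seen and rests on vehicle and TWEAK samples only. The same split was not made over all tested genes or over the other risen genes. Whether the shared direction is particular to the members was therefore not tested. Reads of islet genes differed between the same groups (16.5 to 19.0 CPM at 6 h, at most 0.087 CPM at 24 h), with no library in which they did not, and their part in the result cannot be told apart from time.

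Of the members that were lower, Thbs1 and Neurl3 had the lowest adjusted p. Neurl3 was at 12.97, 12.3 and 12.8 CPM at 6 h and 5.75, 6.09 and 6.11 CPM at 24 h with the inhibitor (log2 fold change -1.17 ± 0.09 SE, adjusted p = 5.2e-11), and Thbs1 at 2445, 2299.7 and 2443 CPM and 1502, 1677 and 1638 CPM (log2 fold change -0.65 ± 0.04 SE, adjusted p = 2.3e-12). The 2 times did not overlap in either gene. The lowest log2 fold change was that of Mmp10 (-1.47 ± 0.34), followed by Gem (-1.39 ± 0.49) and Adra1b (-1.27 ± 0.40), all under 2 CPM, then Neurl3 and Papss2 (-1.06 ± 0.23). In the other direction, Neurl1b went from 4.51, 3.71 and 4.27 CPM to 8.64, 11.2 and 9.65 CPM (log2 fold change 1.15 ± 0.13 SE, adjusted p = 4.5e-08), and Cftr from 6.21, 5.83 and 6.32 CPM to 9.52, 10.5 and 9.94 CPM (log2 fold change 0.63 ± 0.10 SE, adjusted p = 7.1e-06). The remaining largest increases were in 4930579G24Rik (0.76 ± 0.12), whose exons overlap Etfdh on the opposite strand, the organic anion transporter Slco1a5 (0.75 ± 0.22) and Tub (0.67 ± 0.19). The RefSeq span of Slco1a5 overlaps that of the islet gene Iapp. Of the 24 calls, 8 (102634019, Pfkfb3, Pde4b, Slco1a5, Adra1b, Tub, Lrp4 and Gem) were lost under some alternative. Slco1a5 was not called without NIK SMI1 6 h sample 1 (0.68), and Tub not without 6 h sample 1 (0.61) or 2 (0.55). Adra1b was lost without 6 h sample 1 (-1.11) or 2 (-1.08) or 24 h sample 3 (-0.84), and Gem without 6 h sample 2 (-1.33) or 3 (-1.30) or 24 h sample 1 (-1.19) or 2 (-1.39). Without NIK SMI1 6 h sample 1, the count of members higher was 5 instead of 8.

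**Figure D4:**
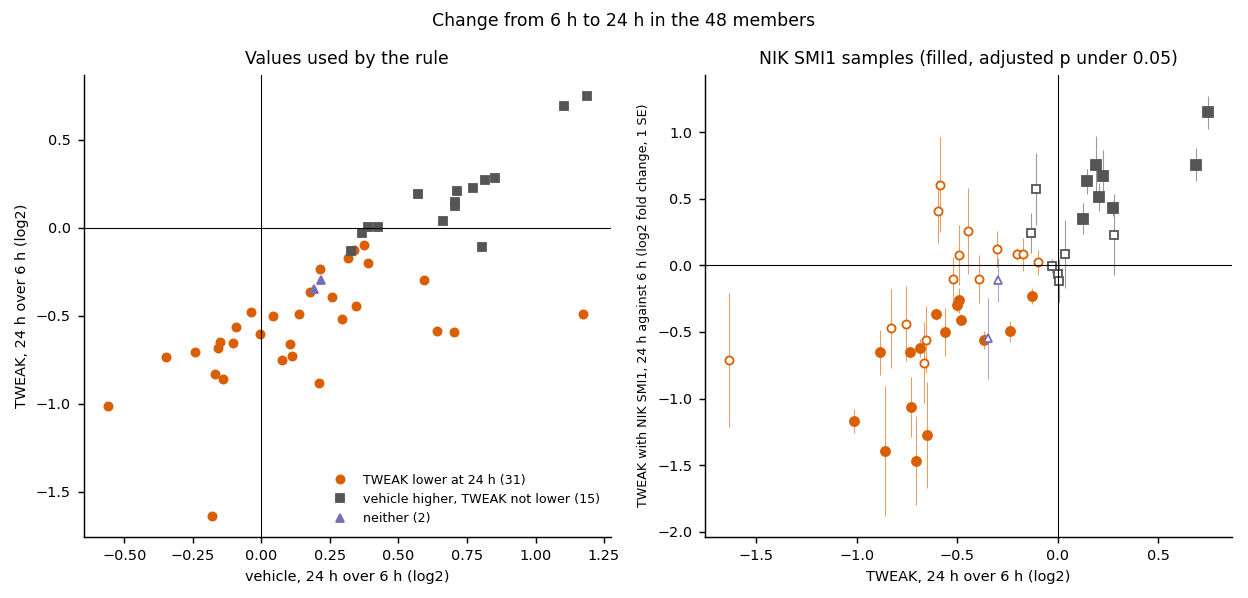
Change from 6 h to 24 h in the 48 members on a log2 scale, with TWEAK against vehicle on the left (values the rule used) and TWEAK with NIK SMI1 (edgeR, bars 1 SE) against TWEAK on the right. The 31 members whose TWEAK samples were lower at 24 h (circles) hold all 16 that were called lower with NIK SMI1, and the 15 squares hold all 8 called higher. The same split was not made over all tested genes. Filled points have an adjusted p under 0.05.

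The rise over vehicle was also computed with the inhibitor, as a description, because the vehicle samples entered the rule. With NIK SMI1 the median rise at 6 h was 1.32 and the median rise at 24 h was 1.09. The ratio between them had a median of 1.24 (0.99 over all tested genes and 0.98 over the 343 other risen genes). At 6 h, a median of 46.3% of the log2 rise over vehicle was left with the inhibitor, with a range from -70.4% to 116%. With the inhibitor, the rise at 6 h was the larger in 46 of the 48 members, and by at least 1.3-fold in 19. The vehicle samples in this ratio also chose the members, which favors a larger rise at 6 h. The shares of all tested genes and of the other risen genes were not counted, so these counts are not read as a result about the members.

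The other genes of the pathway are described from 3 lists. Of them, 20 of 58 tested genes had a rise of at least 1.5 at 6 h, and their ratios of the rise at 6 h to that at 24 h ran from 0.39 to 1.27. The limit of 1 CPM was not applied here, and Map3k8 (ratio 1.27) and Nfkbid lay below it, at 0.64 and 0.36 CPM with TWEAK at 6 h. Above that limit the highest ratio was that of Rel (1.18). The 3 lists share genes, so the counts per list given below overlap. Of the 12 receptor and non-canonical genes, 8 were higher with TWEAK at 6 h (against 11.7% of all genes) and 7 at 24 h (against 18.3%). NIK SMI1 lowered 4 of them at 6 h and raised 2. Nfkb2, whose span overlaps that of the member 4833438C02Rik, rose 3.71-fold at 6 h and 3.65-fold at 24 h. NIK SMI1 lowered Nfkb2 at 6 h (edgeR log2 fold change -0.39 ± 0.04 SE, adjusted p = 9.5e-09). At 541 ± 18.4 CPM with TWEAK at 6 h (SD, n = 3) Nfkb2 was far above 4833438C02Rik (22.96 ± 1.57 CPM), and the counts did not use strand. Whether the exons of the pair overlap was not tested. Map3k14, which encodes NIK, had rises of 1.80 and 1.93, and was higher with the inhibitor at 6 h (log2 fold change 0.43 ± 0.05 SE, adjusted p = 1.3e-06). Of the 23 NF-κB subunits and regulators, 12 were higher with TWEAK at 6 h and 13 at 24 h, and NIK SMI1 lowered 9 and raised 1 at 6 h. The inhibitor gene Nfkbia had rises of 5.84 and 6.80, and was lowered by NIK SMI1 at 6 h (log2 fold change -1.14 ± 0.04 SE, adjusted p = 9.5e-17). Among the 32 adaptors and ubiquitin regulators, 17 were higher at 6 h and 19 at 24 h, and NIK SMI1 lowered 10 and raised 1 at 6 h. At 24 h NIK SMI1 lowered 6, 11 and 16 genes of the lists, in the same order, and raised 2, 1 and 2, where 8.29% of all genes were lower and 10.2% higher. Traf1, an adaptor of TNF receptors, rose 17.99-fold and 46.1-fold, the lowest ratio of rises among the 20. Since the TWEAK 6 h samples are shared, the 6 h counts of lowered and raised genes are read beside the 5.7% and 5.34% of all genes given above.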

How the data were processed

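RNA of 18 mouse cell cultures was sequenced as single-end reads from an mRNA library kit that does not mark strand. The authors aligned reads to mouse NCBI build 37 with GSNAP within HTSeqGenie, kept uniquely aligned reads in exons, and deposited raw read counts and RPKM values per gene. Here the counts were tested and the authors' RPKM served only to order levels between genes. Genes with more than 10 reads in at least 4 samples were kept, as in the study (15521 of 36528). The fit was edgeR's quasi-likelihood test (edgeR 4.0.16, limma 3.58.1, R 4.3.3) over all 18 samples and 6 groups with TMM scaling and Benjamini-Hochberg adjustment over all tested genes. A gene was called at an adjusted p under 0.05. The study used DESeq2, which was an alternative here (1.42.0), as were other scalings and filters, fits of the compared groups alone, other limits of the rule, and leaving out each sample. The scripts were tested on simulated data.

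CPM was the count over the sum of counts in the same sample, times 1000000, and 0.1 was added before ratios were taken. Differences between TWEAK and vehicle chose the members and were not tested for them, except for the difference between the rises in left-out samples. The labels give no replicate numbers, so samples were numbered in the order listed and the numbers pair nothing. Gene symbols came from RefSeq (31049 of 36528 identifiers, 46 of 48 members), promoters from RefSeq on GRCm38.p6. No coordinates of the authors' build were used. The members and lists were chosen with earlier results of these data known. Members were named if they were in a role list, among the 12 largest ratios of rises, the 10 lowest or 5 highest log2 fold changes with NIK SMI1 at 6 h, the 5 lowest or highest from 6 h to 24 h, or the 5 highest RPKM with TWEAK at 6 h. Any other member named (such as St3gal1, Pde4b, Pfkfb3, Lrp4 and Cenpl) was chosen after its values were seen. Counting intervals were not used, since the spread between samples was measured.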

Additional observations from a re-analysis of the deposited data

Results flagged for a closer look

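The difference between the rises at 6 h and 24 h was tested with edgeR in samples left out when the gene was chosen. The members named here passed with the larger rise at 6 h. Being among the 48 itself rested on all vehicle and TWEAK samples, the left-out ones included. For Abcb1b the difference between the rises was 0.62, 0.69 and 0.52 on the log2 scale in the left-out samples numbered 1, 2 and 3. For Sh2d4a it was 0.71, 0.54 and 0.57 in the same sets. In the samples numbered 2 and 3, the difference was 0.58 and 0.59 for Il13ra1, 0.48 and 0.49 for St3gal1, and 0.58 and 0.70 for Afap1l2. Cd14 passed with the samples numbered 3 (0.74) and Tspan2 with those numbered 1 (1.76, adjusted p = 0.040). Each difference rests on 1 sample per vehicle and TWEAK group, assumed to vary like the groups with NIK SMI1, and the 3 sets were chosen from overlapping samples. With the samples numbered 2, Ins1, Pcsk2 and Slc38a5 also passed, which were not among the 48. Ins1 and Pcsk2 were on the list of islet genes examined, and Slc38a5 was not. TWEAK 24 h sample 2 had the fewest islet reads among the vehicle and TWEAK samples.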

How the results depend on the processing

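The number of genes chosen was 29 with 1 in place of 0.1 added to CPM, 19 with a ratio of rises of at least 1.5, 19 with a rise of at least 2 at 6 h, and 26 with a mean of at least 5 CPM, against 48. Leaving out 1 sample gave 39 (vehicle 6 h sample 1) to 74 genes (vehicle 6 h sample 3). Of genes chosen without the sample compared, the share lower with NIK SMI1 at 6 h was 46.7% for samples numbered 1, 23.8% for those numbered 2 and 15.2% for those numbered 3. Without TWEAK 24 h samples 2 and 3, 12 of the 48 were lower at 24 h, against 19. From 6 h to 24 h with NIK SMI1, 5 to 9 members were higher when 1 sample was left out, against 8. The causes were not tested. The other counts stayed within 1.5 times their value under each alternative run, such as 28 to 34 members lower with NIK SMI1 at 6 h without 1 sample and 32 with DESeq2. Of the repeated tests of single members, 2882 kept their side of the threshold, 33 passed it only under the alternative, 107 passed it only in the reported fit, and no called value changed sign. DESeq2 gave no adjusted p for 2 calls of Gem. No paired analysis was possible because the labels give no replicate numbers.

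With 3 samples per group and 15 members at 1 to 2 CPM with TWEAK at 6 h, differences in the lowest genes had the largest errors. Vehicle with NIK SMI1 was not analysed here, so an effect of the inhibitor without TWEAK cannot be told apart from one on the TWEAK response.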
